A study of Mus musculus with 12 samples.

Results

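Cytochromes P450 of families 1 to 4 are the haem enzymes that oxidise drugs, plant compounds, fatty acids and eicosanoids. They were followed here across 12 microarrays of whole mouse jejunum. The group holds every gene whose symbol is Cyp1, Cyp2, Cyp3 or Cyp4 followed by a letter and a number and that has a probe set of its own: 69 of 19938 genes. Of these, 66 are protein-coding and 3 are pseudogenes (Cyp2d13, Cyp2d37-ps and Cyp4f41-ps). A gene's level is its log2 signal, and the 69 genes were divided at a mean of 6 over the 12 arrays into 24 brighter and 45 dimmer genes. Nearest to that line were Cyp2w1 (5.78) and Cyp2c23 (5.86) below it and Cyp2d40 (6.12) and Cyp2d37-ps (6.16) above it.

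The study compared wild-type (WT) mice with mice in which Fgfr1op, also named Cep43, was ablated by tamoxifen (KO). Fgfr1op encodes a centrosomal protein, and the series is about a centrosome defect of intestinal stem cells in relation to Crohn's disease. Mice of each genotype were taken on day 6, day 9 or day 12, counted as post-tamoxifen in the labels, with 2 mice in each of the 6 groups. The same injection protocol is given for all 12 mice, 75 mg/kg intraperitoneally on 5 successive days, and the sources used here name neither the recombinase line nor its promoter, age or strain.

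P450 enzymes sit in the endoplasmic reticulum membrane, bind a haem, and take electrons from a reductase or from cytochrome b5. Families 1 to 3 are known mainly for clearing foreign compounds and are controlled by ligand-sensing transcription factors, among them the aryl hydrocarbon receptor (AhR), the constitutive androstane receptor (CAR) and the pregnane X receptor (PXR). Family 4 hydroxylates the far end of fatty acids and of leukotrienes. In the small intestine most of this activity belongs to absorptive enterocytes of the villus, which meet food compounds first.

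Cyp2c55 and Cyp2c66 lie in the same gene cluster on chromosome 19, with Cyp2c65 between them, and differed in their later course in KO. Cyp3a11 and Cyp3a13 lie on chromosome 5, the first among other Cyp3a genes and the second apart from them, and moved in opposite directions. The 250 bases before the start site of each are printed for that reason. They are from RefSeq's mouse assembly GRCm38.p6 and run 5′ to 3′ on the gene's own strand, with matches to the searched motifs in capitals. The windows are chr19:39006769-39007018 (plus strand) for Cyp2c55, chr19:39113648-39113897 (plus) for Cyp2c66, chr5:145879855-145880104 (minus) for Cyp3a11 and chr5:137921620-137921869 (minus) for Cyp3a13.
Cyp2c55: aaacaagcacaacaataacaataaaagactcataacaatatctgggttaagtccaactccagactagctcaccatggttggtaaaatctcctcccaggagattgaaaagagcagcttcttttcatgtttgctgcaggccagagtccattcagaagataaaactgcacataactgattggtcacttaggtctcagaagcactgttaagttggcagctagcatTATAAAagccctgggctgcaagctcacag
Cyp2c66: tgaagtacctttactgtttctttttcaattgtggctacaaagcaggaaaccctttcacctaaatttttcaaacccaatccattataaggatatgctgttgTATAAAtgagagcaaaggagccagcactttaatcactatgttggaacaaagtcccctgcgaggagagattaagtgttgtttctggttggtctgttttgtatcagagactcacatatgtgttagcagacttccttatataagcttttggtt
Cyp3a11: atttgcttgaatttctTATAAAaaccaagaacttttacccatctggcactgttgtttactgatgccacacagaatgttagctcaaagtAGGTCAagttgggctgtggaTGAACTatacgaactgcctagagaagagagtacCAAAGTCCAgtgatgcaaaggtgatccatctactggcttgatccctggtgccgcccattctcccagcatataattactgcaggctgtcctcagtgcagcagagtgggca
Cyp3a13: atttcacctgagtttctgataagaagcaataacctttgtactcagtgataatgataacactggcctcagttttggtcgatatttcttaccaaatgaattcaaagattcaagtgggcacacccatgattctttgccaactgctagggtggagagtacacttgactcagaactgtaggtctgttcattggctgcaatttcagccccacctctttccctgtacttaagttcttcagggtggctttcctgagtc

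The 6 motifs were searched on both strands: TATAAA (the TATA box), GCGTG (the core that AhR binds), AGGTCA and AGTTCA (nuclear receptor half-sites), CAAAGTCCA (an HNF4 element) and the HNF1 site. None of these motifs overlapped another in the printed windows. Cyp2c55 had TATAAA at -29 to -24 from the start site, where a TATA box usually lies, whereas in Cyp2c66 the match was at -150 to -145. Only exact strings were searched, and the Cyp2c66 window also holds tatataag near the start site, which is no match to TATAAA. In Cyp3a11, TATAAA began at -234, AGGTCA at -162, AGTTCA on the other strand at -142 and CAAAGTCCA at -109. The window of Cyp3a13 held none of the 6 motifs. CAAAGTCCA was present in 6 of the 60 windows of P450 genes (10.0%), those of Cyp2c65, Cyp2c67, Cyp2c68, Cyp2c70, Cyp3a11 and Cyp3a16, and in 0.384% of all 32851 windows. The share with TATAAA was 35.0% against 12.4%, with AGGTCA 25.0% against 14.0%, with AGTTCA 8.33% against 11.8%, and with GCGTG 20.0% against 28.2%. The HNF1 site had no match among the P450 windows and 0.00913% among all windows.

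The deposited values ran from 2.29 to 14.13, and the array medians lay between 5.95 and 6.02. The 2 mice of each group correlated at 0.9917 to 0.9969 over all genes. The ablated gene itself, Cep43, fell at day 9 (-0.39, adjusted p = 0.0184), and its differences of -0.31 at day 6 and -0.09 at day 12 did not pass the test. Whether its probes lie in the deleted part is not given. The tissue was whole jejunum, so for every gene fewer cells of a type and less RNA per cell cannot be told apart.

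At day 6 no P450 gene passed the test between KO and WT, at day 9 20 fell and 2 rose, and at day 12 18 fell and 4 rose. The test was limma's moderated test with Benjamini-Hochberg adjustment over 19938 genes and a threshold of 0.05. Among all genes 1.03% passed at day 6 (0.597% higher and 0.431% lower), 29.7% at day 9 (12.6% higher and 17.1% lower) and 27.3% at day 12 (13.7% higher and 13.7% lower). At an unadjusted p under 0.05, 12 P450 genes differed at day 6, 11 of them lower in KO. By the same measure 2359 of all 19938 genes differed at day 6, 1312 higher and 1047 lower. The median difference of the 69 genes was -0.04 at day 6, -0.06 at day 9 and -0.10 at day 12, beside 0.00, 0.02 and 0.02 over all genes. Of the 20 genes that fell at day 9, 17 also fell at day 12, which is 85% of the first list and 94.4% of the second. The comparisons at each day use different mice but the same variance estimate for each gene. The overlap over all genes was not counted.

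The brighter genes carried most of the calls, as they did over all genes (5068 of 5917 calls at day 9 and 4743 of 5452 at day 12). Of the 24, 15 fell and 2 rose at day 9 and 14 fell and 2 rose at day 12, with median differences of -1.15 and -1.06. Of all 11415 genes above 6, 44.4% passed at day 9 (16.8% higher and 27.6% lower) and 41.6% at day 12 (20.2% higher and 21.3% lower). The counts of the brighter P450 genes are a description, because genes reached the brighter class partly through the group in which they are high. Cyp2c29 and Cyp2c68 were above 6 on average in WT and at or under 6 in KO at days 9 and 12. Among the 45 dimmer genes 5 fell at day 9, and at day 12 4 fell and 2 rose. Of all 8523 genes at or under 6, 9.96% passed at day 9 (6.93% higher and 3.03% lower). At day 12 8.32% of them passed (4.85% higher and 3.47% lower). By family, 12 of 44 Cyp2 genes, 3 of 6 Cyp3a genes and 5 of 16 Cyp4 genes fell at day 9 (17.1% of all genes fell).

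**Figure D1:**
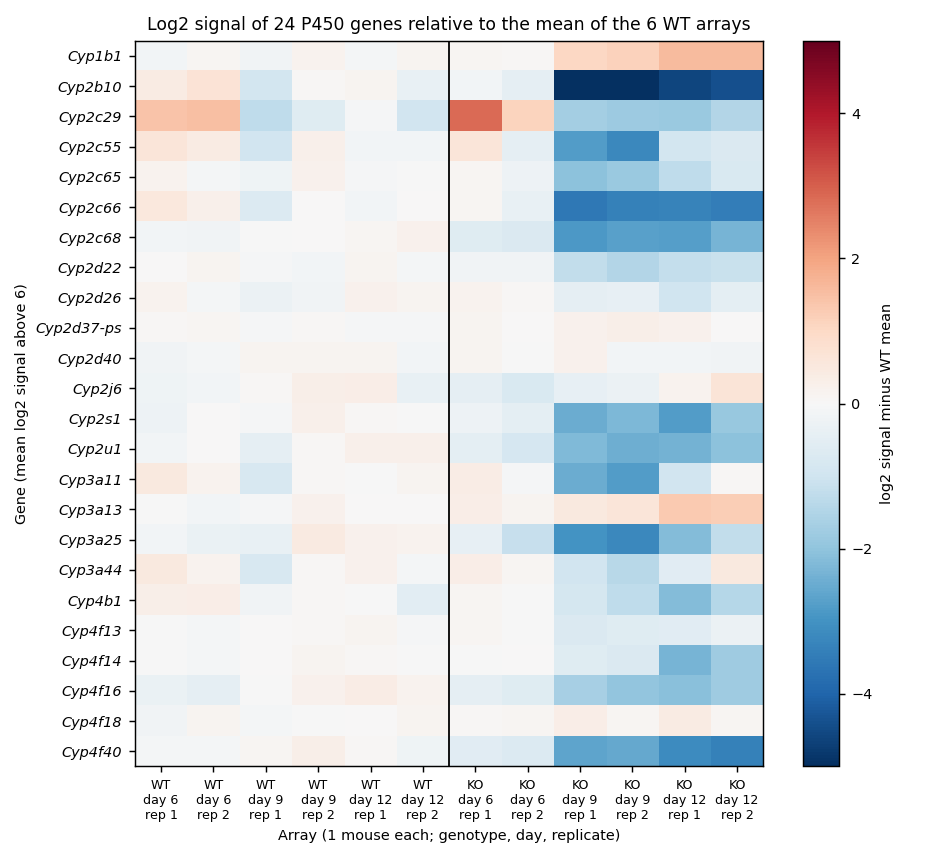
Log2 signal of the 24 brighter P450 genes in each of the 12 arrays, minus the gene's mean over the 6 WT arrays (colour scale in log2 units; blue is lower, red is higher). The KO arrays of day 6 are pale for most genes, with Cyp2c29 red and Cyp4f40, Cyp2c68, Cyp2u1 and Cyp3a25 already light blue; most rows turn a deeper blue at days 9 and 12, Cyp1b1 and Cyp3a13 turn red, and Cyp3a11 and Cyp2c55 are bluest at day 9.

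**Figure D2:**
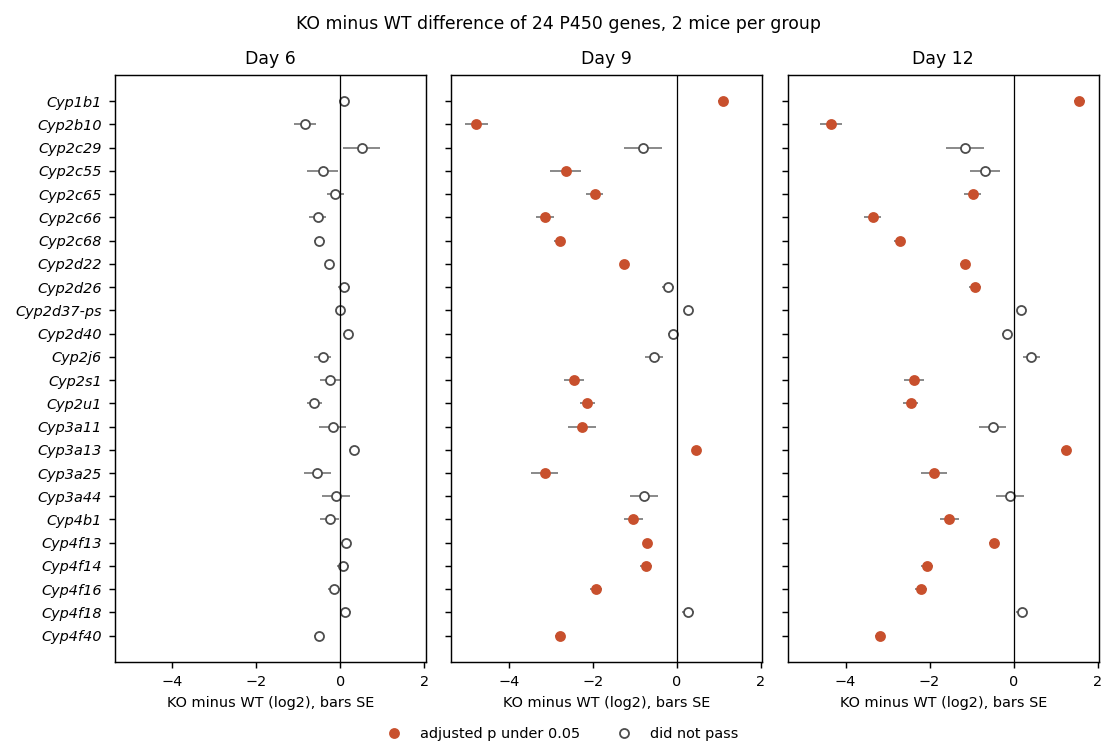
KO minus WT difference (log2, x axis) of the 24 brighter P450 genes at days 6, 9 and 12, from 2 mice per group; bars are standard errors and filled points passed an adjusted p of 0.05. At day 6 every point is open, and at days 9 and 12 Cyp2b10 lies farthest to the left, at -4.77 and -4.36.

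Markers of other features of the tissue moved over the same days. Of 14 markers of absorptive enterocytes, 8 fell at day 9, and at day 12 9 fell and 1 rose. The mean signal of that list over a single array was 12.47 to 12.75 in WT, 12.46 to 12.51 in KO at day 6, 11.48 to 11.62 at day 9 and 11.20 to 11.68 at day 12. Lct, the lactase of the brush border, had already fallen at day 6 (-1.07) and differed by -5.59 at day 9, while Apoa4 differed by 0.12 and did not pass. Of 6 crypt markers 4 fell at day 9 and all 6 at day 12. Of 8 smooth muscle markers none passed at any day, although their array means at day 6 were 9.36 to 10.08 in WT and 8.10 to 8.30 in KO. Of 6 fibroblast markers 3 rose at day 9 and 3 at day 12, with array means of 8.65 to 9.35 in WT, 9.54 to 9.69 in KO at day 9 and 9.70 to 9.89 at day 12. At day 9 none of 5 Paneth, 6 goblet, 5 endothelial and 5 pancreatic markers passed, 3 of 5 tuft, 1 of 6 enteroendocrine and 1 of 6 leukocyte markers fell, and 2 of 5 adipocyte markers rose. At day 12, 4 of 5 Paneth markers fell, 4 of 5 tuft markers fell and 1 rose, 4 of 6 leukocyte markers fell and 1 rose, and 2 of 6 enteroendocrine markers fell and 1 rose. On that day 1 goblet marker rose and 1 fell, 1 pancreatic and 1 adipocyte marker rose, and no endothelial marker passed. Of 7 hepatocyte markers 5 were under 6, among them Alb (4.96), Apoh (4.63) and Fgb (4.87). In that list Tat rose (2.11 at day 9 and 2.43 at day 12), Cps1, which the intestine also expresses, fell (-1.25 and -1.74), Ttr fell at day 9 (-0.41) and Hpx rose at day 12 (0.45). The part of these cell populations in the P450 differences was not tested.

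Family 1 holds the classical AhR-induced genes. Cyp1b1, which oxidises steroids and aromatic pollutants, was the only P450 above 6 in this family and rose in KO. Its log2 signals in WT were 6.76 and 6.97 at day 6, 6.72 and 7.04 at day 9, and 6.79 and 7.01 at day 12. In KO they were 6.97 and 6.93 at day 6, 7.92 and 8.04 at day 9, and 8.46 and 8.48 at day 12. All 4 KO mice of days 9 and 12 lay above all 6 WT mice, while at day 6 KO lay within the range of WT. The difference was 1.10 (SE 0.12, adjusted p = 6.52e-05) at day 9 and 1.57 (SE 0.12, adjusted p = 3.32e-06) at day 12, which is 2.14-fold and 2.96-fold higher signal.

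Cyp1a1, the most widely used reporter of AhR activity, stayed dim in every mouse. WT signals were 4.09 and 4.23 at day 6, 4.18 and 4.14 at day 9, and 4.16 and 4.26 at day 12. KO signals were 4.34 and 4.21 at day 6, 4.16 and 4.05 at day 9, and 4.0 and 4.09 at day 12. The groups overlapped at day 6 and at day 9, its differences were 0.11, -0.05 and -0.16 at the 3 days, and none passed. Cyp1a2 was dim too, between 3.95 and 4.40. Of 5 other AhR target genes with a probe set of their own, 2 fell at day 9, Tiparp (-0.71) and Ahrr (-0.53), the second being the receptor's repressor. At day 12 Ahrr fell (-0.49), Nqo1, a quinone reductase, rose (0.61), and Tiparp, at -0.03, did not pass. The list's median difference was -0.05 at day 9 and -0.03 at day 12.

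Cyp2b10, the standard target gene of CAR, had the largest fall of any P450 gene. WT mice had log2 signals of 11.60 and 11.88 at day 6, 10.26 and 11.24 at day 9, and 11.30 and 10.81 at day 12. KO mice had 11.03 and 10.75 at day 6, 5.88 and 6.08 at day 9, and 6.61 and 6.79 at day 12. The KO mice of day 6 lay below both WT mice of that day but within the WT range over the days, and those of days 9 and 12 lay below every WT mouse. The difference at day 6 was -0.85 (SE 0.26, adjusted p = 0.195), which did not pass. It was -4.36 (SE 0.26, adjusted p = 4.08e-07) at day 12, a 20.5-fold lower signal, and -4.77 (SE 0.26, adjusted p = 3.24e-07) at day 9, where the KO mean was under 6 and no fold is given. One WT mouse of day 9 was lower than the other 5 WT mice, and the KO minus WT difference of day 9 is measured against that mouse and its partner. Averaged over the days the difference was -3.33, with an exact permutation p of 0.00926 (two-sided, genotype permuted within days, the smallest p that design allows).

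Cyp2s1, an epithelial P450 next to Cyp2b10 on chromosome 7, fell with it. Its signals in WT were 10.34 and 10.62 at day 6, 10.55 and 10.85 at day 9, and 10.68 and 10.60 at day 12. Its signals in KO were 10.34 and 10.10 at day 6, 8.14 and 8.36 at day 9, and 7.81 and 8.73 at day 12. KO lay below all WT mice at days 9 and 12, with differences of -2.46 (SE 0.24, adjusted p = 1.94e-05) and -2.37 (SE 0.24, adjusted p = 2e-05), or 5.49-fold and 5.17-fold lower. The other Cyp2b genes, Cyp2b9, Cyp2b13, Cyp2b19 and Cyp2b23, were all under 6. Cyp2b9 passed only in the average over days (-0.19, adjusted p = 0.0293), and the call ended when any of 7 arrays was left out, with adjusted p up to 0.0798.

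The Cyp2c genes, which make epoxides and hydroxy acids from arachidonic and linoleic acid and oxidise many drugs, form the largest subfamily here, and 6 of 13 fell at day 9 and 5 of 13 at day 12 (17.1% and 13.7% of all genes fell). The neighbours Cyp2c55, Cyp2c65 and Cyp2c66 were all bright in WT. Cyp2c66 had WT signals of 12.61 and 12.35 at day 6, 11.39 and 12.09 at day 9, and 11.96 and 12.09 at day 12. Its KO signals were 12.16 and 11.71 at day 6, 8.50 and 8.69 at day 9, and 8.72 and 8.61 at day 12. Both later KO groups lay below 9, the WT mice all above 11, and the differences were -3.15 (SE 0.21, adjusted p = 1.12e-06) at day 9 and -3.36 (SE 0.21, adjusted p = 4.58e-07) at day 12, or 8.85-fold and 10.2-fold lower. Within KO its change from day 9 to day 12 did not pass (0.08, 95% interval -0.38 to 0.53).

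Cyp2c55 fell at day 9 and was higher again in KO at day 12. WT mice had signals of 10.45 and 10.26 at day 6, 8.89 and 10.12 at day 9, and 9.73 and 9.72 at day 12. KO mice had 10.45 and 9.41 at day 6, 7.05 and 6.66 at day 9, and 8.96 and 9.13 at day 12. At day 9 both KO mice lay below every WT mouse, and at day 12 they lay within the WT range, though below both WT mice of that day. The KO minus WT difference was -2.65 (SE 0.36, adjusted p = 0.000233) at day 9, 6.29-fold lower, and -0.68 (SE 0.36, adjusted p = 0.209) at day 12, where it did not pass. The change between those differences passed the test (1.97, SE 0.51, adjusted p = 0.0459), as did the rise within KO (2.19, SE 0.36, adjusted p = 0.00214, 4.56-fold).

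Cyp2c65 took a middle course. Its KO signals were 9.05 and 9.25 at day 9 and 9.82 and 10.37 at day 12, and its WT signals 10.89 and 11.34 at day 9 and 11.03 and 11.10 at day 12. KO lay below WT at both days, with differences of -1.96 (SE 0.20, adjusted p = 2.81e-05) and then -0.97 (SE 0.20, adjusted p = 0.00346). Its rise within KO from day 9 to day 12 was 0.94 (SE 0.20, adjusted p = 0.00744). That rise did not pass without KO day 9 replicate 1 (0.85 with adjusted p = 0.0598) or KO day 12 replicate 2 (0.67 with adjusted p = 0.0659).

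Cyp2c68, from the copy-rich end of the cluster, had WT signals of 7.49 and 7.44 at day 6, 7.58 and 7.64 at day 9, and 7.71 and 7.84 at day 12. In KO it was 7.01 and 6.91 at day 6, 4.73 and 4.92 at day 9, and 4.86 and 5.27 at day 12. Its differences were -0.50 (SE 0.13, adjusted p = 0.109) at day 6, which did not pass (adjusted p = 0.0332 with either KO mouse of day 12 left out), -2.79 (SE 0.13, adjusted p = 9.7e-08) at day 9 and -2.71 (SE 0.13, adjusted p = 6.83e-08) at day 12, when both KO means were under 6. Its neighbour Cyp2c67, dim in all groups, fell by the test at days 9 and 12 as well (-1.28 and -1.38). The Cyp2c67, Cyp2c68, Cyp2c69 and Cyp2c40 genes are near-identical copies, so which of them a probe set reads is uncertain.

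Cyp2c29, an arachidonic acid epoxygenase best known in liver, was highest at day 6 in both genotypes. WT signals were 7.85 and 7.90 at day 6, 5.14 and 5.79 at day 9, and 6.34 and 5.46 at day 12. KO signals were 9.25 and 7.52 at day 6, 4.73 and 4.59 at day 9, and 4.55 and 4.94 at day 12. KO day 6 replicate 1 stood above all other mice, and the later KO mice lay below all later WT mice. The WT change from day 6 to day 9, -2.41 (SE 0.45, adjusted p = 0.105), did not pass, whereas the KO change did (-3.72, SE 0.45, adjusted p = 0.000216). The KO minus WT differences of -0.80 at day 9 and -1.15 at day 12 did not pass. With either KO mouse of day 6 left out the day 12 difference passed with the same value and adjusted p = 0.0103. Without replicate 1 of them the average over days moved from -0.48 to -0.77 and passed. This gene was described in full after its values were seen. Cyp2c23, an epoxygenase just under the line of 6, fell at day 9 (-0.92) and day 12 (-1.22).

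**Figure D3:**
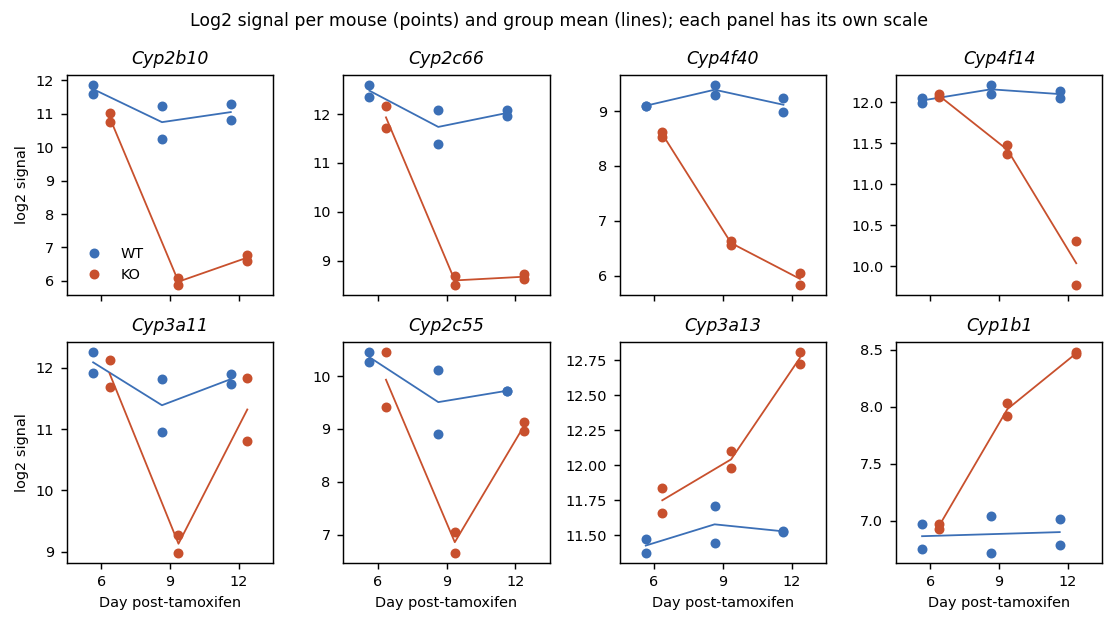
Log2 signal (y axis, a scale of its own in each panel) of 8 P450 genes by day post-tamoxifen; each point is a mouse, blue WT and red KO, and lines join the means of the 2 mice. Cyp2b10, Cyp2c66 and Cyp4f40 stay low at day 12, Cyp4f14 falls further, Cyp3a11 and Cyp2c55 return toward WT, and Cyp3a13 and Cyp1b1 rise.

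Among the Cyp2d genes, the subfamily of the human drug enzyme CYP2D6, 1 of 10 fell at day 9, and at day 12 2 fell and 1 rose. Of all genes 17.1% fell at day 9, and at day 12 13.7% fell and 13.7% rose. Cyp2d22 had KO signals of 7.88 and 7.64 at day 9 and 7.92 and 7.98 at day 12, with WT at 9.05 and 8.99 at day 9 and 9.24 and 9.00 at day 12. The groups did not overlap, and the differences were -1.26 (SE 0.11, adjusted p = 8.03e-06) and -1.17 (SE 0.11, adjusted p = 1.11e-05), or 2.39-fold and 2.25-fold lower. Cyp2d26 fell later, with -0.21 (SE 0.15, adjusted p = 0.318) at day 9, which did not pass, and -0.91 (SE 0.15, adjusted p = 0.000665) at day 12. Its KO signals at day 12 were 10.33 and 10.83 and its WT signals 11.53 and 11.46. Cyp2d40 and Cyp2d37-ps, both just above 6, did not pass at any day and had differences between -0.16 and 0.26. The largest, that of Cyp2d37-ps at day 9, passed with arrays centred on their medians (adjusted p = 0.0479) and with either KO mouse of day 12 left out (adjusted p = 0.0444). The dim Cyp2d9 rose at day 12 (0.32, adjusted p = 0.0424), a call that ended when any of 5 arrays was left out, among them WT day 12 replicate 1 (0.28 with adjusted p = 0.198).

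Cyp2u1, which hydroxylates long-chain fatty acids, lies outside the P450 clusters and fell. WT signals were 8.71 and 8.87 at day 6, 8.39 and 8.92 at day 9, and 9.09 and 9.08 at day 12. KO signals were 8.34 and 7.99 at day 6, 6.62 and 6.41 at day 9, and 6.49 and 6.78 at day 12. The KO mice of days 9 and 12 lay below every WT mouse, with differences of -2.14 (SE 0.18, adjusted p = 5.84e-06) and -2.45 (SE 0.18, adjusted p = 1.45e-06), or 4.4-fold and 5.45-fold lower. At day 6 the difference of -0.63 (SE 0.18, adjusted p = 0.149) did not pass.

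Cyp2j6, an intestinal epoxygenase, was one of the bright genes with no KO minus WT call. KO signals were 9.19 and 9.32 at day 9 and 9.80 and 10.27 at day 12, and WT signals were 9.70 and 9.91 at day 9 and 9.96 and 9.26 at day 12. The day 9 difference of -0.55 (SE 0.21, adjusted p = 0.0724) did not pass, and it passed when any array of day 12 was left out, with adjusted p of 0.0269 or 0.0494. At day 12 the groups overlapped, the difference was 0.42 (SE 0.21, adjusted p = 0.174), and without WT day 12 replicate 1 it was 0.77 with adjusted p = 0.0183. Its neighbour Cyp2j9, mostly under 6, fell at day 9 (-0.85, SE 0.14, adjusted p = 0.00077) and day 12 (-0.45, SE 0.14, adjusted p = 0.0291). The second call ended without WT day 12 replicate 1 (-0.24 with adjusted p = 0.275) or KO day 12 replicate 1 (-0.40 with adjusted p = 0.124).

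Cyp2r1, the vitamin D 25-hydroxylase, was dim but rose at the last day. In WT its signals were 5.04 and 4.89 at day 6, 5.05 and 4.88 at day 9, and 5.08 and 5.18 at day 12. In KO they were 4.99 and 4.96 at day 6, 4.98 and 5.03 at day 9, and 6.03 and 6.11 at day 12. Only the 2 KO mice of day 12 were above 6, and the difference of 0.94 (SE 0.10, adjusted p = 2.23e-05) passed, as did its change from day 9 (0.90, SE 0.13, adjusted p = 0.00614). Cyp2a22, another dim gene, passed at day 9 alone (-0.38, SE 0.12, adjusted p = 0.0331). That call ended without WT day 9 replicate 1 (-0.24 with adjusted p = 0.263) or KO day 9 replicate 2 (-0.29 with adjusted p = 0.176). Cyp2e1, the ethanol-oxidising P450, Cyp2f2, Cyp2g1, Cyp2t4 and Cyp2w1 were all under 6 and did not pass at any day.

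Cyp3a enzymes oxidise a large share of drugs, and Cyp3a11 is the main PXR target among them in mouse. It fell at day 9 and was higher again in KO at day 12. WT mice had signals of 12.26 and 11.92 at day 6, 10.96 and 11.82 at day 9, and 11.74 and 11.90 at day 12. KO mice had 12.12 and 11.69 at day 6, 9.27 and 8.99 at day 9, and 10.81 and 11.84 at day 12. At day 9 both KO mice lay more than 1 unit below the lowest WT mouse, and at day 12 1 KO mouse lay within the WT range and the other just below it. The difference was -2.26 (SE 0.32, adjusted p = 0.000332) at day 9, 4.79-fold lower, and -0.50 (SE 0.32, adjusted p = 0.319) at day 12. The second did not pass, but without KO day 12 replicate 2, the higher mouse of the pair, it was -1.01 with adjusted p = 0.032. The rise within KO from day 9 to day 12 passed (2.19, SE 0.32, adjusted p = 0.00122, 4.57-fold), and so did the change of the KO minus WT difference (1.76, SE 0.46, adjusted p = 0.0461).

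Cyp3a13 took the opposite direction. WT signals were 11.48 and 11.38 at day 6, 11.45 and 11.71 at day 9, and 11.53 and 11.52 at day 12. KO signals were 11.84 and 11.66 at day 6, 11.98 and 12.10 at day 9, and 12.81 and 12.72 at day 12. Both KO mice were above both WT mice at each of the 3 days, least at day 6 and most at day 12. The difference of 0.32 (SE 0.11, adjusted p = 0.24) at day 6 did not pass, 0.46 (SE 0.11, adjusted p = 0.00768) at day 9 did, and at day 12 it was 1.24 (SE 0.11, adjusted p = 7.18e-06), a 2.36-fold higher signal. Without WT day 9 replicate 1 the day 9 value was 0.33 with adjusted p = 0.0856. The growth of the difference from day 9 to day 12 passed as well (0.77, SE 0.15, adjusted p = 0.0177).

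Cyp3a25 and Cyp3a44 flank Cyp3a11 on chromosome 5. Cyp3a25 had WT signals of 10.82 and 10.62 at day 6, 10.58 and 11.40 at day 9, and 11.18 and 11.11 at day 12. Its KO signals were 10.53 and 9.80 at day 6, 7.95 and 7.74 at day 9, and 8.79 and 9.71 at day 12. KO lay below WT at days 9 and 12 without overlap, with differences of -3.14 (SE 0.32, adjusted p = 2.78e-05) and -1.90 (SE 0.32, adjusted p = 0.000921), or 8.84-fold and 3.72-fold lower. Its partial rise within KO was 1.40 (SE 0.32, adjusted p = 0.0105), and without KO day 12 replicate 2 it was 0.94 with adjusted p = 0.0918. Cyp3a44 did not pass against WT at any day, with -0.79 at day 9, or -1.22 and adjusted p = 0.0343 without WT day 9 replicate 1. The day 9 value also passed with either KO mouse of day 12 left out (adjusted p = 0.0354).

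Within KO, Cyp3a44 fell from day 6 to day 9 (-1.37) and rose from day 9 to day 12 (1.14). The rise was 0.61 with adjusted p = 0.244 without KO day 12 replicate 2, and it also did not pass with either KO mouse of day 9 left out. The dim Cyp3a57 differed by -0.47 at day 9 and -0.47 at day 12. Both calls ended without replicate 2 of the WT mice of that day (-0.40 with adjusted p = 0.056 and -0.41 with adjusted p = 0.0513). Cyp3a11, Cyp3a25, Cyp3a44 and Cyp3a57 resemble one another closely, and how far their probe sets read each other's transcripts is uncertain.

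In family 4, 4 of 9 Cyp4f genes fell at day 9 and 4 at day 12 (17.1% and 13.7% of all genes fell). Cyp4f14, which inactivates leukotriene B4 by hydroxylation, fell in steps. WT signals were 12.06 and 11.99 at day 6, 12.10 and 12.22 at day 9, and 12.14 and 12.06 at day 12. KO signals were 12.07 and 12.10 at day 6, 11.48 and 11.36 at day 9, and 9.77 and 10.30 at day 12. KO lay just above WT at day 6, below it at day 9 and lower again at day 12, with differences of -0.74 (SE 0.14, adjusted p = 0.00238) and -2.07 (SE 0.14, adjusted p = 1.08e-06), or 1.67-fold and 4.19-fold lower. The change between the 2 differences passed (-1.33, SE 0.20, adjusted p = 0.00621). Its neighbour Cyp4f13 differed by -0.71 (SE 0.11, adjusted p = 0.000691) at day 9 and -0.47 (SE 0.11, adjusted p = 0.00841) at day 12. The later call ended without WT day 12 replicate 1 (-0.39 with adjusted p = 0.0797) or KO day 12 replicate 1 (-0.32 with adjusted p = 0.0675).

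Cyp4f40 had the smallest interaction p of all 69 genes, meaning that its genotype difference depended on the day (adjusted p = 4.9e-06). WT signals were 9.10 and 9.10 at day 6, 9.29 and 9.48 at day 9, and 9.25 and 8.98 at day 12. KO signals were 8.63 and 8.53 at day 6, 6.55 and 6.63 at day 9, and 6.05 and 5.83 at day 12. The 2 KO mice of day 6 were already below all WT mice, and the difference of -0.52 (SE 0.12, adjusted p = 0.068) did not pass the test. It passed with either KO mouse of day 12 left out (adjusted p = 0.0471). The difference was -2.79 (SE 0.12, adjusted p = 4.23e-08) at day 9, 6.93-fold lower, and -3.17 (SE 0.12, adjusted p = 1.18e-08) at day 12, when the KO mean was under 6. Cyp4f16, close to it on chromosome 17, had KO signals of 7.96 and 7.67 at day 9 and 7.55 and 7.86 at day 12, against 9.62 and 9.86 at day 9 and 10.02 and 9.80 at day 12 in WT. Its differences were -1.92 (SE 0.14, adjusted p = 2.54e-06) and -2.20 (SE 0.14, adjusted p = 6.56e-07), or 3.79-fold and 4.6-fold lower.

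Cyp4f18, the leukotriene B4 hydroxylase of leukocytes, lay between 5.88 and 6.47 in all mice and did not pass at any day. Cyp4f15, next to Cyp4f40 on chromosome 17, was dim. It did not pass against WT and fell within KO from day 9 to day 12 (-0.47).

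Cyp4b1, a fatty acid hydroxylase that also activates furan toxins, fell at both later days. WT signals were 9.85 and 9.91 at day 6, 9.41 and 9.65 at day 9, and 9.55 and 9.06 at day 12. KO signals were 9.69 and 9.55 at day 6, 8.68 and 8.30 at day 9, and 7.39 and 8.15 at day 12. KO lay below every WT mouse at days 9 and 12, with differences of -1.04 (SE 0.23, adjusted p = 0.00548) and -1.53 (SE 0.23, adjusted p = 0.000396), or 2.05-fold and 2.89-fold lower. Without WT day 9 replicate 2 the day 9 value was -0.92 with adjusted p = 0.0513. The 5 Cyp4a genes, omega-hydroxylases that PPAR-alpha induces in liver and kidney, were all under 6, and none passed between KO and WT. Outside the P450s, 6 of 13 PPAR-alpha target genes fell at day 9, led by Vnn1 (-2.18), Ehhadh (-2.02) and Acadm (-1.28), and 6 fell at day 12. That list's median difference was -0.63 at day 9.

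The course over days was also tested within each genotype. Within WT, 0 of 69 genes passed across the 3 days (0.0201% of all genes did). At an unadjusted p under 0.05 there were 7 of the 69, beside 2003 of all 19938 genes. Within KO, from day 6 to day 9, 20 fell and 3 rose (24.5% of all genes passed, 14.5% lower). The 3 that rose were Cyp1b1 and the dim Cyp2d34 (0.39) and Cyp4a10 (0.43). From day 9 to day 12, 10 rose and 4 fell (22.9% of all genes passed, 14.1% higher and 8.81% lower). Those that rose were Cyp3a11, Cyp2c55, Cyp3a25, Cyp3a44, Cyp2r1, Cyp2c65, Cyp2j6, Cyp3a13, Cyp1b1 and Cyp2j9. Those that fell were Cyp4f14, Cyp4b1, Cyp4f40 and Cyp4f15.

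Some of these late changes were small and rested on single mice. Cyp2j6 rose by 0.78 and was 0.55 with adjusted p = 0.171 without KO day 12 replicate 2. Cyp1b1 rose by 0.49 and was 0.43 with adjusted p = 0.107 without KO day 9 replicate 1. Cyp4b1 was -0.72, or -0.34 with adjusted p = 0.25 without KO day 12 replicate 1 and -1.10 with adjusted p = 0.00876 without KO day 12 replicate 2. Cyp2j9 rose by 0.43, a call that ended when any of 8 arrays was left out. Without KO day 9 replicate 1 the count of calls was 8, of which 5 rose and 3 fell. Without KO day 12 replicate 2 it was 9, of which 4 rose and 5 fell, so the larger number of rises did not hold without that mouse.

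The interaction of genotype and day passed for 21 of the 69 genes (18.5% of all genes). Of the single steps, the change of the KO minus WT difference from day 9 to day 12 passed upward for Cyp2c55, Cyp3a11, Cyp3a13, Cyp2r1 and Cyp2a22 and downward for Cyp4f14 (6.08% of all genes passed, 4.06% higher and 2.02% lower). Averaged over the days, 21 genes were lower and 3 higher in KO (32.6% of all genes passed, 16.9% lower and 15.7% higher). The 3 were Cyp1b1, Cyp3a13 and Cyp2r1.

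The genes that regulate P450s changed on the same days, none of them at day 6. Of 24 regulators, 14 fell and 2 rose at day 9, with a median difference of -0.46, and 14 fell and 2 rose at day 12. The largest falls at day 9 were those of Ppargc1a, a coactivator (-3.70, SE 0.26, adjusted p = 1.95e-06), Vdr, the vitamin D receptor (-2.32, SE 0.12, adjusted p = 2.75e-07), and Nr5a2, a nuclear receptor of the gut epithelium (-1.65, SE 0.18, adjusted p = 5.65e-05). The 2 that rose at day 9 were Pparg (1.19, SE 0.14, adjusted p = 7.72e-05) and Cebpb (0.62, SE 0.19, adjusted p = 0.0275). The 2 that rose at day 12 were Pparg (1.78, adjusted p = 2.8e-06) and Rora (0.44, adjusted p = 0.0357). Cebpb, at -0.008 (adjusted p = 0.985), did not pass at day 12. Nr1i2, which encodes PXR, differed by -0.59 (SE 0.13, adjusted p = 0.00621) at day 9 and -0.64 (SE 0.13, adjusted p = 0.00355) at day 12.

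Nr1i3, which encodes CAR, differed by -0.08 (SE 0.13, adjusted p = 0.714) at day 9, which did not pass, and -0.43 (SE 0.13, adjusted p = 0.027) at day 12. Ahr itself differed by -0.05 (SE 0.09, adjusted p = 0.736) at day 9. Ppara fell at day 9 (-1.41, SE 0.17, adjusted p = 8.14e-05). Hnf4g fell at day 9 (-1.10), and Hnf4a, its relative, fell less in value (-0.41, SE 0.12, adjusted p = 0.022). At day 12 Hnf4g passed (-0.58, adjusted p = 0.0226) and Hnf4a did not (-0.26, adjusted p = 0.137). No link between a regulator's difference and that of a P450 gene was tested.

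The partners of the enzymes were divided. Of 15 genes of electron transfer and haem supply, 9 fell and 3 rose at day 9, with a median difference of -0.41, and 6 fell and 2 rose at day 12. At day 9 Cyb5a, cytochrome b5, fell (-0.93, SE 0.13, adjusted p = 0.000276). Cyb5r3, a reductase of cytochrome b5, also fell at day 9 (-0.80, SE 0.27, adjusted p = 0.0422). Fech, which inserts iron to form haem, fell by the test too on that day (-0.87, SE 0.10, adjusted p = 8.29e-05). Alas1, the first enzyme of haem synthesis, rose at day 9 (0.93, SE 0.13, adjusted p = 0.00026). Alad, the next enzyme, rose too (0.59, SE 0.15, adjusted p = 0.012). At day 12 Cyb5a (-0.90) and Alas1 (1.21) still passed. Cyb5r3 (-0.23, adjusted p = 0.615), Fech (-0.06, adjusted p = 0.76) and Alad (-0.07, adjusted p = 0.793) did not pass at day 12. Hmox1, which degrades haem, rose most at day 9 (1.54, SE 0.13, adjusted p = 5.5e-06) and differed by 1.92 at day 12.

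**Figure D4:**
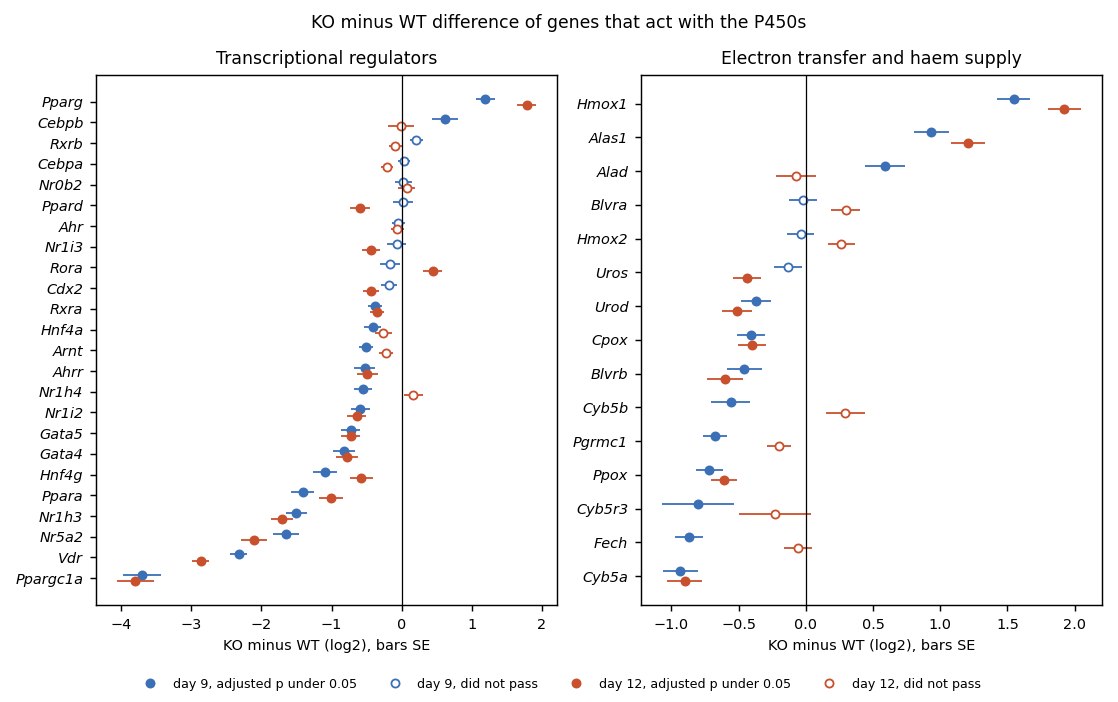
KO minus WT difference (log2, x axis) of 24 regulators of P450 genes and 15 genes of electron transfer and haem supply at day 9 (blue) and day 12 (red); bars are standard errors from 2 mice per group and filled points passed an adjusted p of 0.05. Ppargc1a and Vdr lie farthest left and Pparg farthest right among the regulators, and Hmox1 and Alas1 lie farthest right among the partners.

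With 2 mice per group an exact permutation test at a single day cannot go below 0.333, so the calls at single days rest on the variance that limma shares among genes. For the average over days the exact test reached its smallest p of 0.00926 for 14 genes, among them Cyp2b10, Cyp2c66, Cyp2u1, Cyp3a25, Cyp3a13 and Cyp4f40, and gave 0.0278 for Cyp1b1 and 0.0463 for Cyp3a11. This exact test was run on P450 genes alone, so the share of all genes reaching its smallest p is not known.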

How the data were processed

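RNA of whole jejunum was read on 12 Affymetrix Mouse Gene 1.0 ST arrays. The deposited values are on a log2 scale. How the authors summarised and normalised them is not stated; R 3.5 and limma are listed in the submitters' processing notes without a purpose. Of 35556 probe sets, 21789 had 1 gene symbol in the platform annotation, 1621 had several and 12146 had none; the last 2 kinds were left out, with 7 P450 probe sets among them (Cyp4v3 included). The probe set with the highest mean stood for a gene, which gave 19938 genes. All 69 P450 genes matched RefSeq by Entrez ID.

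One model with 6 group means was fitted in limma 3.58.1 (R 4.3.3) to all genes, with 6 residual and 5.23 prior degrees of freedom and Benjamini-Hochberg adjustment over all genes. The median standard error was 0.11 at 1 day and 0.066 for the average over days. The script was tested on simulated data. Exact tests permuted genotype within days (two-sided). Folds are given only where both group means were above 6, and signals were not tested against background. Array number limits the precision. The limma p-values rest on the spread between mice within groups of 2, pooled over the 6 groups and shared among genes.

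Named were the brighter genes with the 5 largest called falls and rises at day 9 and day 12, the 3 smallest interaction p-values, well-known members, dim called members, and for other lists the 3 largest called differences per direction at day 9. The members and lists were chosen with earlier results of these data known. Over all genes, replicate 1 minus replicate 2 in KO was correlated with the same difference in WT. The correlations were 0.18, -0.0897 and 0.113 at days 6, 9 and 12, so the numbers were not taken to pair mice. Alternatives changed the normalisation, centring, filter, probe set, variance model, array weights, size of change, replicate block and arrays used.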

Additional observations from a re-analysis of the deposited data

Results flagged for a closer look

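For 21 P450 genes the KO minus WT difference itself changed between days, by limma's test of the genotype by day interaction adjusted over all genes; 18.5% of all genes passed. The adjusted p was 4.9e-06 for Cyp4f40, 1.8e-05 for Cyp2c68, 8.62e-05 for Cyp2b10, 0.000114 for Cyp4f16, 0.000149 for Cyp2c66 and 0.000151 for Cyp4f14. It was 0.000596 for Cyp1b1, 0.00108 for Cyp2r1, 0.00108 for Cyp2u1, 0.00155 for Cyp2s1, 0.00191 for Cyp2d22, 0.00345 for Cyp2c65, 0.00388 for Cyp3a13, 0.00508 for Cyp2c67 and 0.00707 for Cyp3a25. It was 0.0102 for Cyp4f13, 0.0154 for Cyp2d26, 0.0163 for Cyp3a11, 0.0181 for Cyp2c55, 0.0433 for Cyp4b1 and 0.046 for Cyp2a22. Most of these differences were nearer to 0 at day 6 than at the later days. Those of Cyp1b1, Cyp3a13, Cyp2r1 and Cyp2a22 were above 0 at day 12.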

How the results depend on the processing

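Single calls were followed for KO against WT at each day and averaged, and for KO day 12 against KO day 9. They covered the brighter P450 genes and the dim ones called against WT. Of these 81 called differences, none turned under any alternative run. With any 1 array left out 65 kept their call, and 16 lost it without at least 1 array. Single calls between KO day 6 and KO day 9, and those on changes of the KO minus WT difference, were not followed. At day 6, 1 gene was called after quantile normalization (Cyp4f40) and 4 with array weights (Cyp2c23, Cyp2c68, Cyp2j9 and Cyp4f40), and 0 to 2 with an array left out. Counting only differences of at least 1, 11 genes were called in the average over days and 6 between KO day 12 and KO day 9. With array weights that last count was 9, and with an array left out it ran from 8 to 14, with 4 rises and 5 falls without KO day 12 replicate 2. The cause was not tested, except that a size limit can only remove calls. The counts at day 9 and day 12, the interaction, KO day 9 against KO day 6 and WT across days stayed within 1.5 times under the alternatives run. With the replicate block 0 genes were called at day 6, 22 at day 9, 21 at day 12, 25 in the average, 20 in the interaction, 20 between KO day 9 and KO day 6, 11 between KO day 12 and KO day 9 and 0 across WT days; the mice share only a number, so the block is no pairing. A line at 5.5 gave 29 brighter genes and at 7 gave 18, of which 17 and 14 fell at day 9. Dim signals limit the 45 genes under 6, whose differences can be compressed.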

Other observations

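P450s of other families, which make sterols, bile acids and vitamin hormones, moved in both directions. Of 14 with a probe set of their own, 2 rose and 2 fell at day 9, and 3 rose and 3 fell at day 12, with a median difference of 0.06 at day 9. Cyp51, which removes a methyl group from lanosterol in cholesterol synthesis, rose at day 9 (0.76, SE 0.13, adjusted p = 0.000956). Cyp20a1, whose substrate is not settled, rose too (0.72, SE 0.10, adjusted p = 0.000284). Cyp39a1 fell on that day (-0.95, SE 0.12, adjusted p = 0.00011). Cyp27a1, the mitochondrial sterol hydroxylase of bile acid synthesis, also fell at day 9 (-0.80, SE 0.18, adjusted p = 0.00526).

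Among 14 genes that make or clear eicosanoids and fatty acid epoxides, 4 fell and 1 rose at day 9, and 3 fell and 2 rose at day 12. Hpgd, which inactivates prostaglandins, fell most at day 9 (-2.26, SE 0.19, adjusted p = 7.69e-06). Its signals at day 12 overlapped, with 10.86 and 11.62 in KO and 11.73 and 11.61 in WT. Next at day 9 came Ephx2, the soluble epoxide hydrolase that acts on products of Cyp2c and Cyp2j enzymes (-0.89, SE 0.14, adjusted p = 0.000553). Lta4h, which makes leukotriene B4, followed (-0.70, SE 0.10, adjusted p = 0.00029). Ptges, a prostaglandin E synthase, rose at day 9 (0.33, SE 0.11, adjusted p = 0.0481).

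In WT at day 9, replicate 1 had a lower signal than replicate 2 for several P450 genes. The values of replicate 1 and then replicate 2 were 10.26 and 11.24 for Cyp2b10, 8.89 and 10.12 for Cyp2c55, 11.39 and 12.09 for Cyp2c66, 10.96 and 11.82 for Cyp3a11 and 5.81 and 6.68 for Cyp3a44. These genes were picked after their values were seen.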
